A study of Mus musculus with 68 samples.

Results

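The genes of major histocompatibility complex (MHC) antigen presentation were followed across benign skin tumors of backcross mice. The set held 9 genes, chosen by symbol: the class I heavy chains H2-K1 and H2-D1, the class II chains H2-Aa, H2-Ab1 and H2-Eb1, and Cd74, B2m, Tap1 and Ciita. All array probesets that carry these symbols were taken, 34 of the 45101 on the array. Of these, 31 carried 1 symbol and 3 carried a member symbol beside another gene's. H2-Ea, the partner chain of H2-Eb1, was described beside them.

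The tumors were 68 papillomas from 37 FVBBX mice, offspring of [SPRET/Ei X FVB/N] hybrids bred back to FVB/N, in which a mouse carries either FVB/N alleles only or 1 SPRET/Ei allele at an autosomal locus. All mice were treated alike: at 8 to 12 weeks of age their back skin received the carcinogen DMBA once, followed by the tumor promoter TPA on 2 days of each week over 20 weeks. Papillomas were taken at sacrifice, 179 to 388 days after the start in the 31 mice with that number. Each papilloma was hybridized to its own array, with 2 papillomas from 31 mice and 1 from the other 6. Classes followed the number of papillomas at 20 weeks: 12 susceptible mice (22 arrays) carried 9 to 35, 6 resistant mice (11 arrays) carried 0 or 1, and 19 intermediate mice (35 arrays) carried 2 to 7. All papillomas were from treated skin, and no untreated control was analysed here. MHC genotypes were not analysed here either.

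Class I molecules, a heavy chain held together with beta-2 microglobulin (B2m), sit on nearly all nucleated cells and show peptides from inside the cell to CD8 T cells. The peptides are pumped into the endoplasmic reticulum by the transporter of which Tap1 is a subunit. Class II molecules are pairs of an alpha and a beta chain, H2-Aa with H2-Ab1 and H2-Ea with H2-Eb1, and show peptides from outside the cell to CD4 T cells. They are made by dendritic cells, Langerhans cells of the epidermis, macrophages and B cells, and by other cells after interferon-gamma. Cd74 is the invariant chain that guides class II molecules through the cell, and Ciita is the coactivator that switches their genes on. H2-K1, H2-D1, Tap1 and the class II chains lie together on chromosome 17, and the heavy chains, H2-Aa, H2-Ab1 and H2-Eb1 are among the most polymorphic genes of the mouse.

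Values are log2 values per probeset, on which a difference of 1 is a 2-fold change. Array medians lay between 5.19 and 5.29. The log2 ratio of the 3' to the 5' control probeset of Actb, a measure of RNA length, ran from -0.27 to 2.13 over arrays, with a median of 0.68. The levels of sex-linked genes went against the sex label in 6 mice (8 arrays), and results were also computed without these mice. Summed levels of epidermal keratinocyte markers (Krt5, Krt14 and others) were high in every susceptible and resistant mouse, with list means of 11.9 to 13.5. The tissue is a mixture, so fewer cells of a type and less RNA per cell cannot be told apart in any value here.

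The sequences just before the transcription start of the class II and class I genes are shown because the results turn on how far these genes moved together. Windows of 300 bases around the start, from RefSeq for GRCm38.p6, were given for 6 of the members (H2-K1, H2-D1, B2m, Tap1, H2-Aa and H2-Eb1). They are of the reference strain, not of FVB/N or SPRET/Ei. Printed are the 160 bases before the start, 5′ to 3′ on the gene's strand, with capitals for matches to 4 motifs searched on both strands. The motifs were the Y box ATTGG (or CCAAT on the other strand), the X1 box (AG, any pair, AC, any base, GATG), the interferon-stimulated element (GAAA and GAAA with a pair of any bases between) and the STAT site TTCNNNGAA.
H2-Aa, chr17:34287824-34287983, minus strand: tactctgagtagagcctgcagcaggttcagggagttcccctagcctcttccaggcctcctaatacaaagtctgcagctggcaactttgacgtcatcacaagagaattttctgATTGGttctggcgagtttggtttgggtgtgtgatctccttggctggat
H2-Eb1, chr17:34305707-34305866, plus strand: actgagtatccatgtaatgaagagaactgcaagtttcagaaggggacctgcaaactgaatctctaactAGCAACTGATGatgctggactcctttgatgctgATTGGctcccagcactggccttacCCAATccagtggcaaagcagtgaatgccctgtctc
H2-K1, chr17:34000348-34000507, minus strand: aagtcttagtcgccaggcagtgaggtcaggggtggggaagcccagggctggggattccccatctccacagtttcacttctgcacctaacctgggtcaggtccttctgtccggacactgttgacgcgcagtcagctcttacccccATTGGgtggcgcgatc
H2-D1, chr17:35262934-35263093, plus strand: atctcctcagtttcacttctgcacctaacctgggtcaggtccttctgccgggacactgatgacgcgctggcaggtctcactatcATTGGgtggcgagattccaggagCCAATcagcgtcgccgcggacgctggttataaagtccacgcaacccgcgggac
B2m, chr2:122147527-122147686, plus strand: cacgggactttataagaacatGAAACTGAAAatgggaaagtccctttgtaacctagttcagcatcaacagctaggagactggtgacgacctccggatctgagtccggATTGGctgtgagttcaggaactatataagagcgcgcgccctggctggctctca
The Y box letters were in 6 of the 6 member windows, against 37.9% of all 27025 windows of the same length. Of these 6, the X1 box letters were in H2-Eb1 alone, beginning at position -92 from the start, and in 0.999% of all windows. Of the same 6, the interferon-stimulated letters were in B2m alone, beginning at position -139, and in 3.49% of all windows. The STAT site letters were in 0 of the 6 member windows and in 8.47% of all. A match here describes letters and not a bound site.

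Of the 31 member probesets with 1 symbol, 23 lay above their array's own median on at least 11 of the 68 arrays and were tested, and 21 of these did so on all 68 arrays. H2-K1 had 4 tested probesets, H2-D1 had 7, H2-Aa and H2-Ab1 had 3 each, B2m had 2, and H2-Eb1, Cd74, Tap1 and Ciita had 1 each. The Ciita probeset 1421210_at was above the median on 13 arrays only, with mouse means from 4.38 to 5.57. Of the 8 probesets left out (2 of H2-D1, 1 of H2-Aa, 3 of Tap1 and 2 of Ciita), H2-D1 1450170_x_at was above the median on 1 array and the others on 0. Probeset names ending in _x_at mark probes that can also bind related transcripts, so H2-K1 and H2-D1, which are near-identical in parts, were not separated with certainty.

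The probesets of a gene agreed closely for H2-Aa, H2-Ab1 and B2m, and did not for H2-K1 and H2-D1. Over the 37 mice, Pearson's r between probesets was 0.88 to 0.95 for H2-Aa, 0.97 to 0.98 for H2-Ab1 and 0.95 for B2m. For H2-K1 it ran from -0.47 to 0.91 over 6 pairs, and for H2-D1 from -0.26 to 1.00 over 21 pairs. These correlations describe values that share arrays and carry no test.

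Both H2-K1 pairs with a negative r held 1 probeset, 1450534_x_at. H2-K1 1450534_x_at ranged from 7.25 to 10.89 over mice, with a median of 9.92 and an SD of 1.12. H2-K1 1425336_x_at ranged from 10.20 to 12.91 with an SD of 0.63, and 1451931_x_at, the brightest, from 11.56 to 13.21 with an SD of 0.33. The mice formed 2 bands when 1450534_x_at was set against 1425336_x_at, with no mouse between them. The difference between these probesets within a mouse was -4.29 to -2.99 in 14 mice and -1.06 to -0.41 in 23 mice, with a gap of 1.94 and no other gap above 0.47. Within the bands r was 0.78 over 14 mice and 0.94 over 23 mice, against a pooled r of -0.47, but a split on the difference of 2 values itself favors a positive r on either side.

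Papillomas of the same mouse lay on the same side of this gap in 31 of the 31 mice with a pair, both below it in 12 and both above it in 19. The gap was found in the means of these same papillomas. A mouse with 1 papilloma on either side would tend to have its mean in the gap, so the count adds little to it. The differences between the papillomas of a mouse also ran together for these probesets, with r of 0.80 over 31 mice. In mouse 13, for instance, 1450534_x_at was lowest of all at 7.25 while 1425336_x_at was 11.51, rank 21 from the lowest of 37. In mouse 32, a resistant mouse, 1425336_x_at was lowest at 10.20 while 1450534_x_at was 9.27, rank 14. The bands were seen in the values and not defined by any label, and they are described here without a test.

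**Figure D1:**
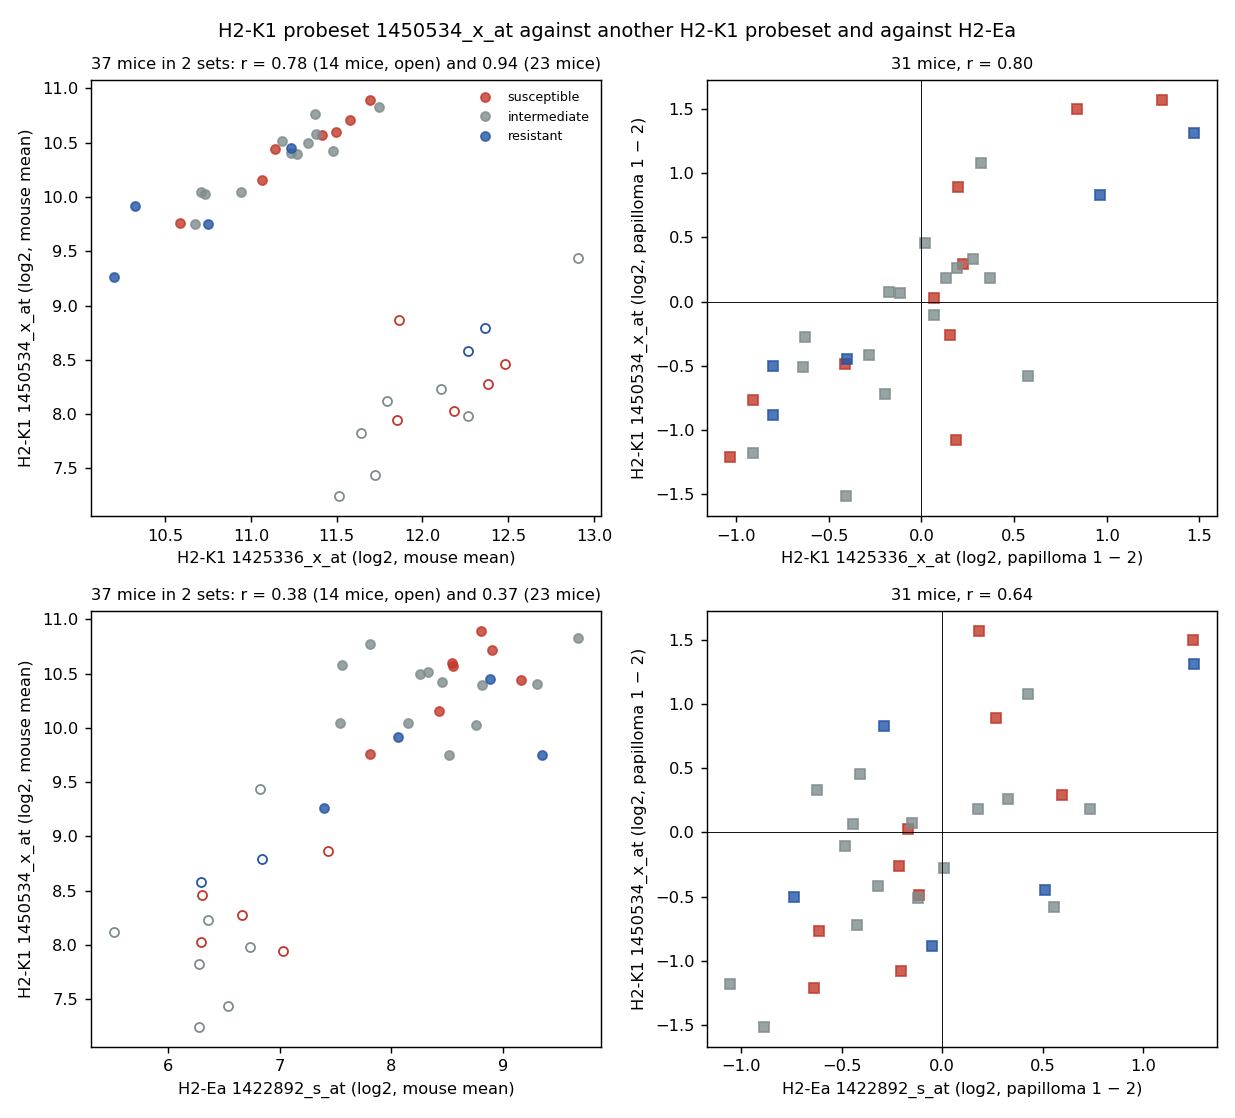
H2-K1 probeset 1450534_x_at (vertical axes) against H2-K1 1425336_x_at (top) and H2-Ea 1422892_s_at (bottom), as log2 mouse means of 37 mice on the left and as log2 differences between the papillomas of 31 mice on the right; colors give the class, and open circles are the 14 mice below the gap. The top left panel shows 2 parallel bands of mice (r = 0.78 and 0.94), and the top right panel a single cloud (r = 0.80).

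H2-D1 was divided in nearly the same way. Its probesets 1425545_x_at, 1451784_x_at and 1426324_at ran together, with r of 0.92 to 1.00. H2-D1 1451683_x_at ranged from 10.41 to 12.26 and had r of 0.085 with 1425545_x_at over all mice. The difference between the last pair was -2.53 to -1.86 in 15 mice and -1.16 to -0.88 in 22 mice, with a gap of 0.70. Within the H2-K1 bands r of this pair was 0.85 over 14 mice and 0.68 over 23. These bands are not independent of the pair. H2-K1 1425336_x_at had r of 0.89 with H2-D1 1425545_x_at, and H2-K1 1450534_x_at had 0.83 with H2-D1 1451683_x_at. The split can thus favor a positive r here as well. The 15 mice held all 14 of the lower H2-K1 band and mouse 23, an intermediate mouse. Mouse 23 stood at -2.42 by H2-D1, among the lower mice, and at -1.06 by H2-K1, among the upper mice. H2-D1 1427651_x_at and 1452544_x_at varied little, with SDs of 0.16 each, and had r of 0.31 with each other.

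Of the class II chains, H2-Eb1 and 1 of the H2-Ea probesets were divided too, by their widest gap, when set against H2-Aa. H2-Eb1 1417025_at ranged from 6.33 to 9.38 with an SD of 0.92, and H2-Ea 1422892_s_at from 5.52 to 9.67 with an SD of 1.10. H2-Ea 1422892_s_at minus H2-Aa 1452431_s_at was -5.55 to -4.87 in 14 mice and -3.38 to -2.20 in 23, a gap of 1.49 with no other above 0.18. All 14 were the 14 mice of the lower H2-K1 band. H2-Eb1 minus H2-Aa was -5.42 to -4.27 in 13 mice and -3.32 to -1.59 in 24, a gap of 0.95 with a next one of 0.81, and these 13 were also in the lower H2-K1 band. The exception was mouse 15, an intermediate mouse, which had the lowest H2-Ea 1422892_s_at of all mice (5.52) but an H2-Eb1 of 9.13, rank 34 of 37. The brighter H2-Ea probeset, 1422891_at, had its widest gap against H2-Aa (0.47) between 1 mouse and 36, and so did H2-Eb1 against Cd74 (0.91). By both differences, however, every mouse of the lower H2-K1 band except mouse 15 lay below every mouse of the upper band. H2-Ab1 minus H2-Aa had a widest gap of 0.18, which set 1 mouse apart. Cd74 minus H2-Aa had no wide gap, but its widest (0.12, next 0.11) lay between 13 mice and 24, and 12 of these 13 were in the lower H2-K1 band.

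The bands did not follow the classes of mice closely. The lower H2-K1 band held 5 of the 12 susceptible, 7 of the 19 intermediate and 2 of the 6 resistant mice.

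**Figure D2:**
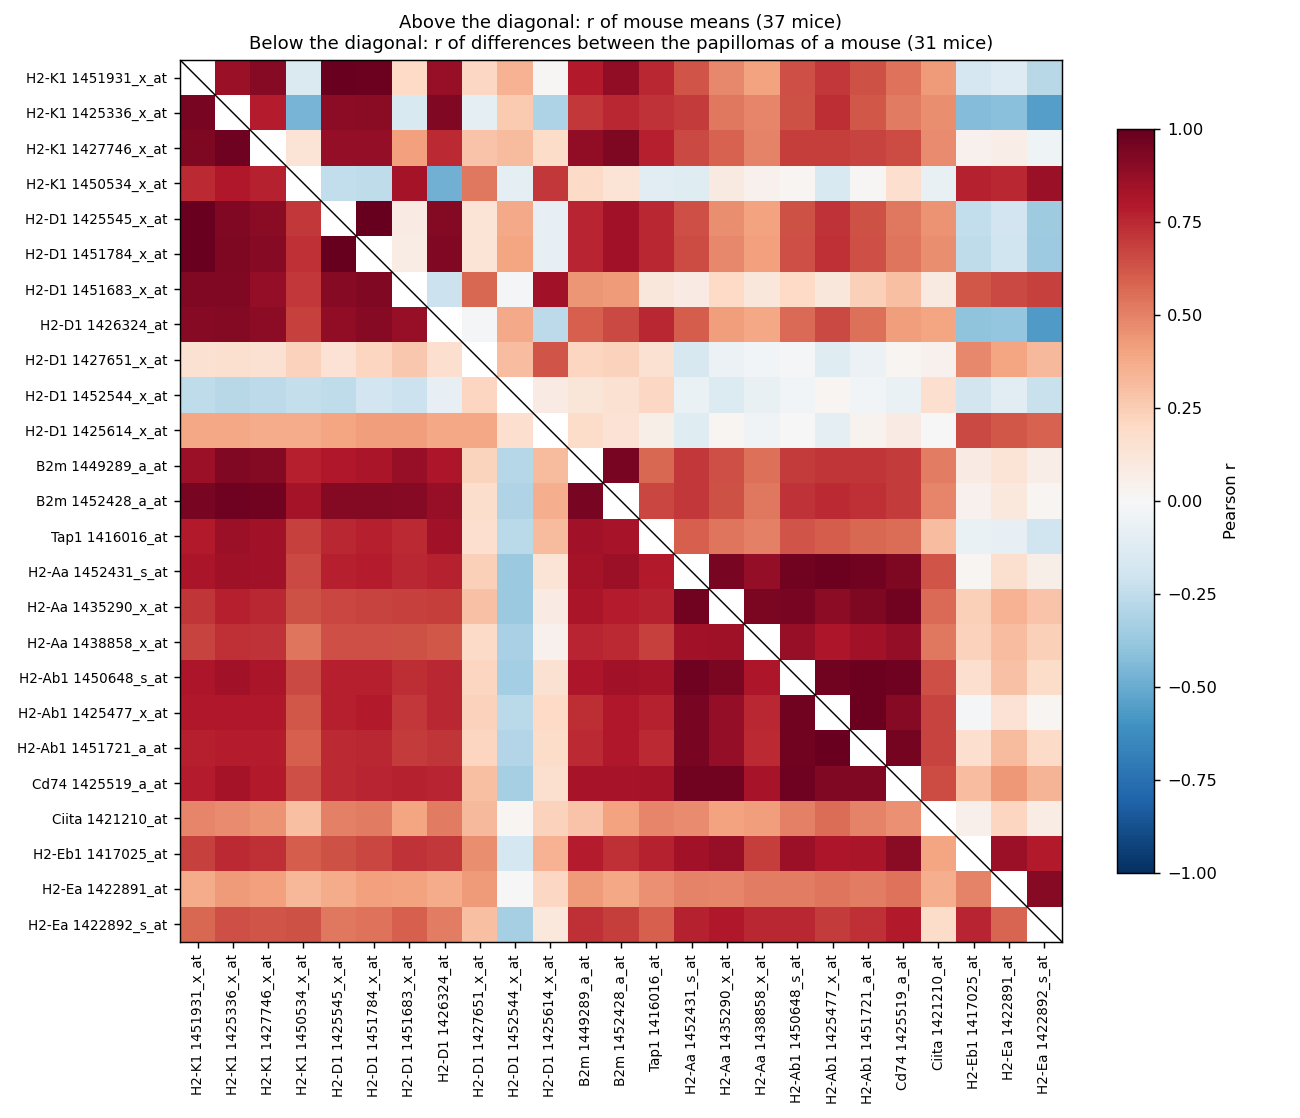
Pearson's r between the 23 tested member probesets and 2 of H2-Ea (color, from -1 in blue to 1 in red); squares above the diagonal use mouse means of 37 mice, and squares below it the log2 differences between the papillomas of 31 mice. Above the diagonal H2-K1 1450534_x_at, 3 H2-D1 probesets, H2-Eb1 and H2-Ea stand apart from the other class I and class II probesets, whereas below it most squares are red, except those of H2-D1 1452544_x_at and 1427651_x_at.

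The genes most alike to each probeset were ranked by the size of r, of either sign, over 37 mice among 12587 other tested genes. Of the 20 most alike to H2-K1 1450534_x_at, 20 were on chromosome 17, as were 19 for H2-D1 1425614_x_at, 18 for H2-D1 1451683_x_at, 15 for H2-Eb1 and 19 for H2-Ea 1422892_s_at. They included genes with no role in antigen presentation, such as the ubiquitin ligase Ubr2 (r = 0.74 with 1450534_x_at) and the Mediator subunit Med20 (r = -0.74). The 19 for H2-Ea 1422892_s_at include H2-Ea itself, by its brighter probeset 1422891_at (r = 0.91). For H2-K1 1451931_x_at only 1 of 20 was on chromosome 17, for H2-Aa 1452431_s_at 4, for B2m 1449289_a_at 3, and for Tap1 and Ciita 1 each. Of the 12552 genes with a chromosome, 4.85% were on chromosome 17. This count was added after the values had been seen, and the parts that alleles, linked genes and probe sequence have in it were not tested.

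Papillomas of the same mouse were alike for most members. The intraclass correlation (ICC), the share of variance that lies between mice, was 0.86 for H2-Eb1 1417025_at, 0.79 for H2-K1 1450534_x_at and 0.75 for H2-D1 1426324_at. It was 0.52 to 0.59 for H2-Aa, 0.60 to 0.68 for H2-Ab1, 0.52 for Cd74, 0.44 for Tap1, 0.42 for H2-K1 1451931_x_at and 0.32 for Ciita. The B2m probesets had 0.31 and 0.36. H2-Ea had 0.82 and 0.89.

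By the F test over 31 pairs with Benjamini-Hochberg adjustment over all 21561 tested probesets, 19 of the 23 member probesets passed the threshold of 0.05, beside 71.0% of all tested probesets. The median ICC was 0.52 over the members and 0.44 over all tested probesets, so the share that passed was near the background. The 4 that did not pass were H2-K1 1427746_x_at (0.27), H2-D1 1427651_x_at (0.058), H2-D1 1452544_x_at (0.19) and B2m 1449289_a_at (0.31, adjusted p = 0.0566 by the F test over all tested probesets), whose other probeset passed (adjusted p = 0.0307).

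Between the papillomas of a mouse, H2-Eb1 differed by a median of 0.23, against a median of 1.03 between the means of any pair of mice. H2-K1 1450534_x_at differed by 0.50 within mice and 1.13 between them. For B2m 1449289_a_at the medians were 0.34 and 0.41, and for H2-K1 1451931_x_at 0.22 and 0.29. The widest pair of B2m 1449289_a_at, H2-K1 1451931_x_at and H2-D1 1425545_x_at was in each case that of mouse 32, with 12.49 and 11.15 for B2m and 12.34 and 11.17 for H2-K1. For H2-Aa, H2-Ab1, Cd74 and Tap1 it was that of mouse 25, an intermediate mouse, with 9.93 and 11.53 for H2-Aa.

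**Figure D3:**
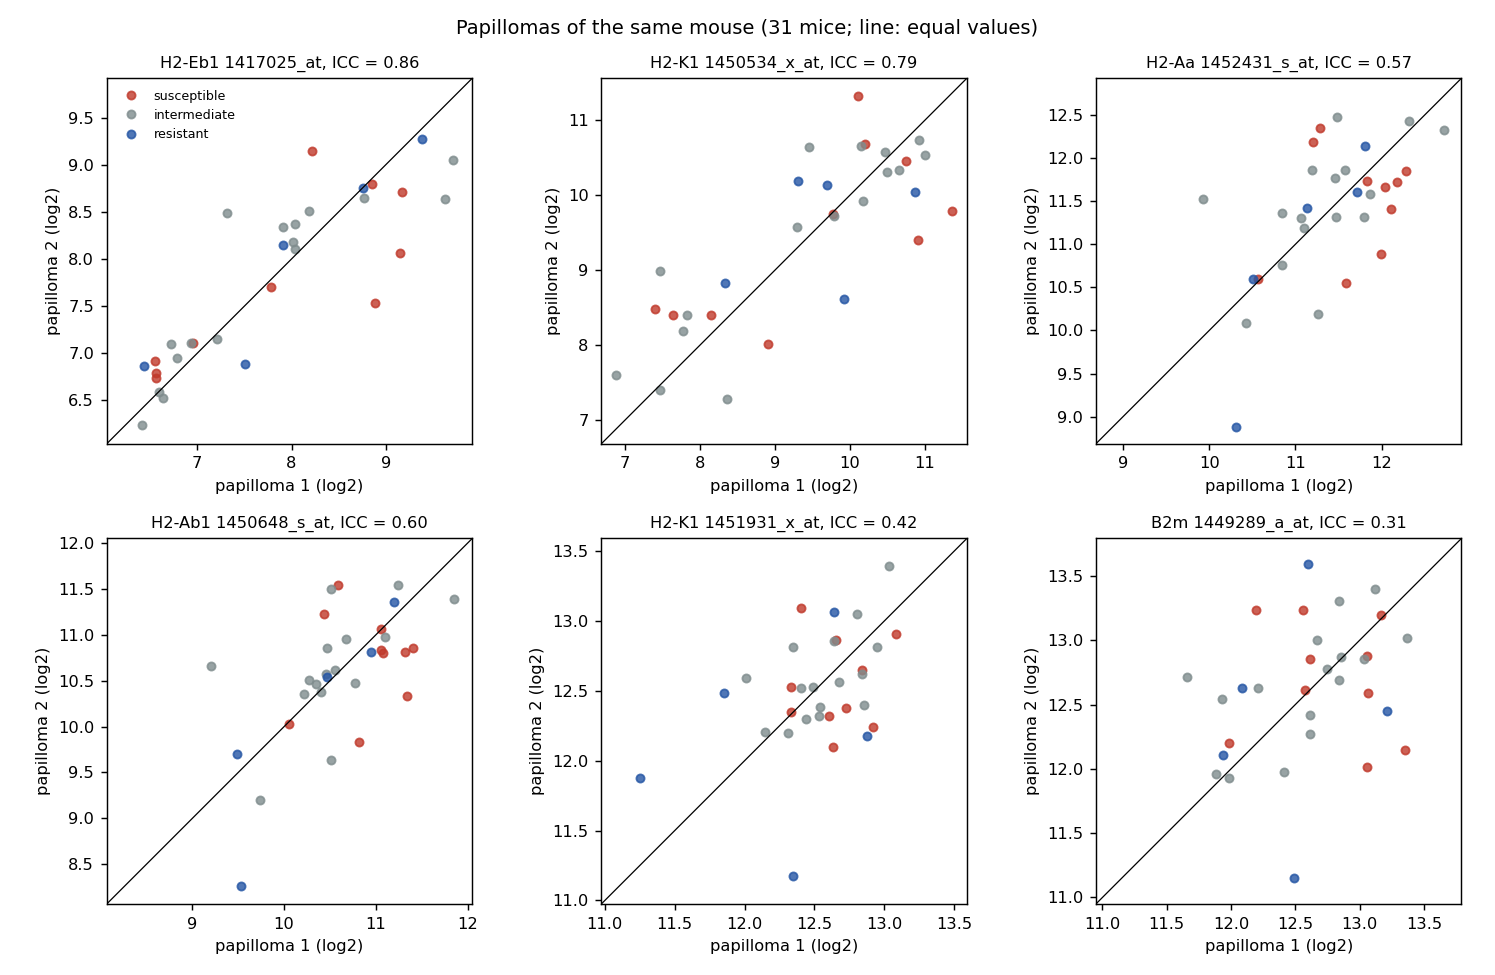
Log2 value of papilloma 2 against papilloma 1 for each of 31 mice, for 6 probesets, with the line of equal values and the ICC in each title; colors give the class. H2-Eb1 (0.86) keeps close to the line over a wide range, with a median difference of 0.23 between papillomas. H2-K1 1450534_x_at (0.79) lies farther from the line than B2m (0.31), with median differences of 0.50 and 0.34, but covers a wider range.

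Class I and class II genes rose and fell together over all 37 mice, with H2-Eb1 apart, though several of these relations were weak in the lower H2-K1 band (given below). With 1 probeset per gene, the brightest, 27 of the 36 pairs of the 9 genes passed the threshold by a permutation test of Pearson's r over 37 mice (100000 permutations, two-sided, Benjamini-Hochberg over the 36 pairs), and all 27 had a positive r. Spearman's rho, tested in the same way, also called 27. H2-K1 and H2-D1 were not separated with certainty, so their pairs with the other genes may count the same transcripts more than once. All 9 pairs that did not pass held H2-Eb1 (8 pairs) or were Tap1 with Ciita (r = 0.31).

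Within class I, all 6 pairs passed with the brightest probesets, with r from 0.58 to 0.99. H2-K1 and H2-D1 had r of 0.99 (rho 0.98). Both probesets are of the _x_at kind and may bind transcripts of either gene. This r therefore cannot show that the genes themselves moved together. H2-K1 with B2m had r of 0.79 (rho 0.78) and with Tap1 0.76 (rho 0.74). The smallest permutation p of 1e-05, which is the smallest 100000 permutations can give, was reached by each of these 3 pairs, with an adjusted p of 3.27e-05. With the most variable probesets H2-K1 with B2m (r = 0.14, adjusted permutation p = 0.531) and with Tap1 (r = -0.12, adjusted permutation p = 0.597) did not pass.

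Within class II, H2-Aa, H2-Ab1 and Cd74 were near-parallel. H2-Aa with H2-Ab1 had r of 0.97 (rho 0.95), H2-Aa with Cd74 0.93 (rho 0.90) and H2-Ab1 with Cd74 0.97 (rho 0.97), each with an adjusted permutation p of 3.27e-05. Ciita, the coactivator, had r of 0.63 with H2-Aa (rho 0.70) and 0.65 with both H2-Ab1 (rho 0.72) and Cd74 (rho 0.71), although its values were close to background.

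Between the classes, 15 of 20 pairs passed. H2-K1 1451931_x_at and H2-Aa 1452431_s_at had r of 0.63 (permutation p = 3e-05, adjusted p = 6.75e-05) and rho of 0.56 (permutation p = 0.00049, adjusted p = 0.00117). Without mice 32 and 37, both resistant and lowest in H2-K1, r was 0.48 (adjusted permutation p = 0.00739). Within start cohort 1 r was 0.82 over 6 mice (exact permutation p = 0.0486, two-sided) and rho 0.37 (exact permutation p = 0.497). Within cohort 2 r was 0.71 over 8 mice (exact permutation p = 0.0409) and rho 0.62 (exact permutation p = 0.115). Within cohort 6 r was 0.64 over 9 mice (exact permutation p = 0.0587) and rho 0.73 (exact permutation p = 0.0311). The highest relation between the classes was that of B2m with H2-Aa, with r of 0.70 (adjusted permutation p = 3.27e-05) and rho of 0.66 (adjusted permutation p = 0.000129). Its r was 0.95 and 0.77 within cohorts 1 and 2 (exact permutation p = 0.0167 and 0.0302), with rho of 0.71 and 0.81 (exact permutation p = 0.136 and 0.0218), but 0.085 within the 9 mice of cohort 6 (exact permutation p = 0.824).

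The mean of the standardized class I genes and that of the class II genes had r of 0.61 over 37 mice (rho 0.54) and 0.86 over the differences between papillomas of 31 mice. The relation of H2-K1 to H2-Aa turned on the probeset taken for H2-K1. H2-K1 1450534_x_at in place of the brightest probeset had r of -0.12 with H2-Aa 1452431_s_at and -0.24 with H2-D1 1425545_x_at over all mice. With the most variable probeset of every gene, which also changes those of H2-D1, H2-Ab1 and B2m, H2-K1 and H2-D1 had r of -0.48, and 23 of the 36 pairs passed, 2 of them with a negative r.

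H2-Eb1 had r of 0.017 with H2-Aa, 0.17 with H2-Ab1 and 0.31 with Cd74 over all mice. Since the mice lie in bands, r was also taken within each set of the lower and upper H2-K1 band. In the 23 mice of the upper band H2-Eb1 had r of 0.94 with H2-Aa, 0.94 with H2-Ab1 and 0.96 with Cd74, and 0.46 to 0.64 with the other members. In the 14 mice of the lower band, mouse 15 among them, its r with the other members ran from -0.39 to -0.019. Over the 13 lower mice without mouse 15, r of H2-Eb1 was 0.61 with H2-Aa and 0.52 with H2-Ab1. Mouse 15 was set apart by these same differences, which itself favors a positive r in the rest. The relations of class I genes to H2-Aa 1452431_s_at were also lower over the 14 mice of the lower band. H2-K1 1451931_x_at had r of 0.21 with it in the lower band and 0.68 in the upper, and H2-D1 1425545_x_at 0.22 and 0.66. Tap1 had 0.088 and 0.69, and B2m 1449289_a_at 0.55 and 0.77. Tap1 with Ciita went the other way, with 0.32 and 0.20. The difference between the bands was not tested.

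The relations were also taken within mice. The differences between the papillomas of a mouse had r of 0.81 for H2-K1 with H2-Aa over 31 mice, 0.84 for H2-Eb1 with H2-Aa and 0.91 for H2-Eb1 with Cd74. Over all 36 pairs r within mice ran from 0.29 to 0.99 with a median of 0.80, against -0.25 to 0.99 with a median of 0.63 between mice. The 8 pairs with H2-Eb1 had a median of 0.78 within mice and 0.034 between them. These are descriptions with no test of the difference.

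**Figure D4:**
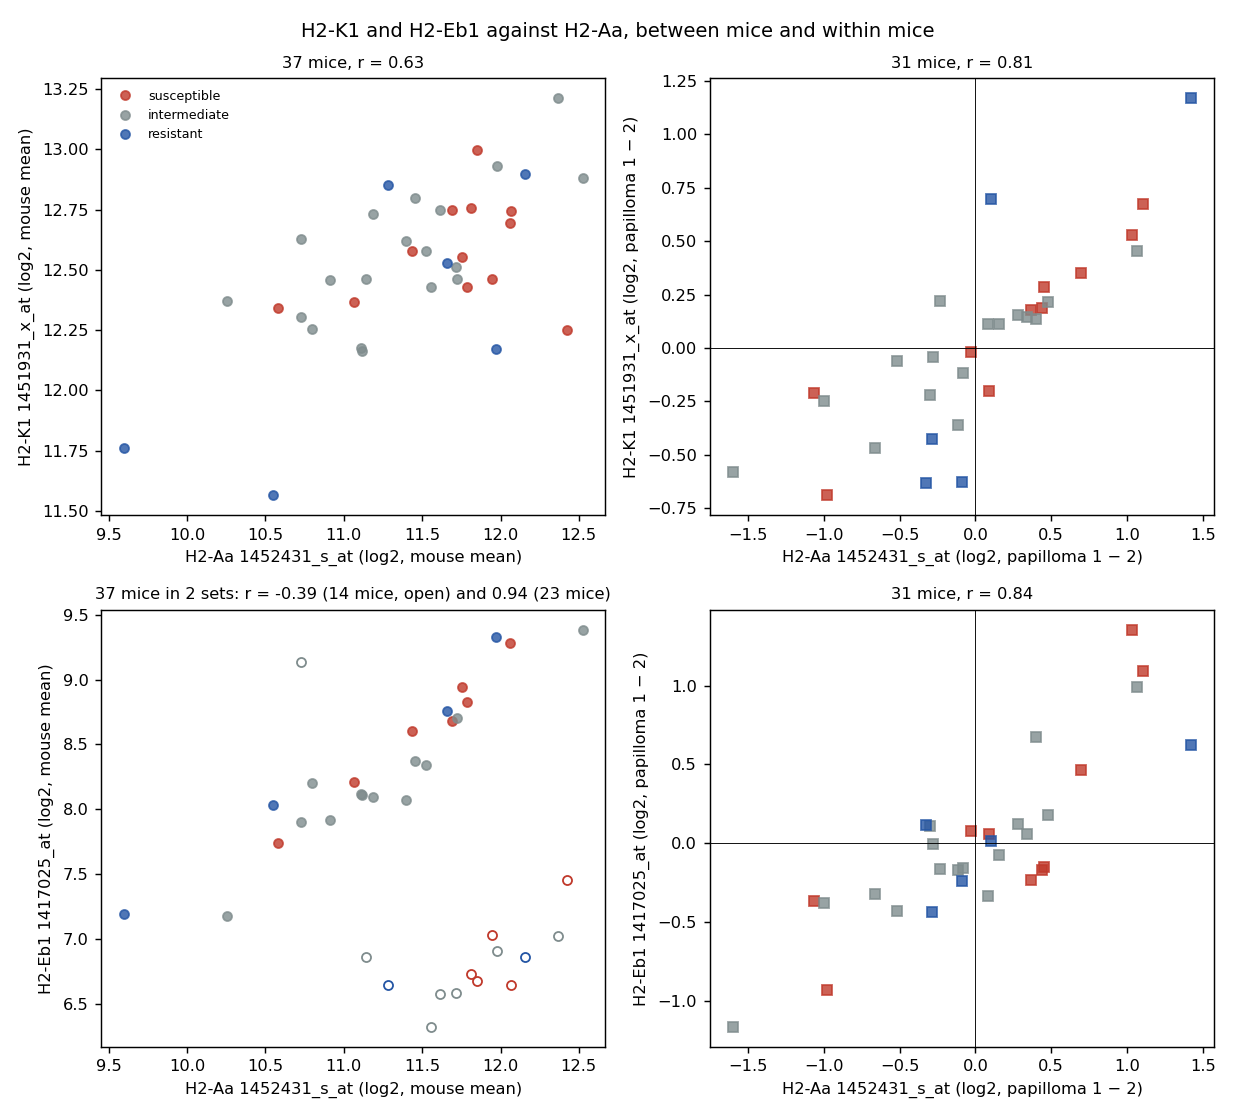
H2-K1 1451931_x_at (top) and H2-Eb1 1417025_at (bottom) against H2-Aa 1452431_s_at, as log2 mouse means of 37 mice on the left and as log2 differences between papillomas of 31 mice on the right; colors give the class, and open circles at the bottom left are the 14 mice of the lower H2-K1 band. H2-K1 follows H2-Aa between mice (r = 0.63), and H2-Eb1 follows it within the upper band (r = 0.94). In the lower band H2-Eb1 had r of -0.39 over 14 mice and 0.61 over the 13 without mouse 15. Both genes follow H2-Aa within mice (r = 0.81 and 0.84).

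The genes outside the set of highest positive r with H2-K1 1451931_x_at over the 37 mice were Tap2, the second subunit of the transporter (r = 0.86), Tapbpl, an editor of class I peptides (0.81), Ptpra (0.81), Akirin1 (0.80), Ctsc, a lysosomal dipeptidase (0.79), Ppp1r14c (0.77), Il13ra1 (0.76), Urah (0.75), Copz1 (0.74) and Rab8a (0.74). Those of highest positive r with H2-Aa 1452431_s_at were H2-DMa, which helps load class II peptides (0.91), the immunoproteasome subunits Psmb8 (0.86), Psmb9 (0.82) and Psmb10 (0.76), the proton channel Hvcn1 (0.85), Dock10 (0.81), Ctss, the protease that cuts the invariant chain (0.80), Fgl2 (0.77), Myo1g (0.77) and Rnase4 (0.77). Psmb8, Psmb9 and Psmb10 supply class I peptides, and stood here among the genes nearest to a class II chain. Of the 20 genes of largest r of either sign, 12 were negative for H2-K1 and 0 for H2-Aa.

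Leukocyte markers moved with the class II genes. Over the 37 mice H2-Aa had r of 0.72 with the mean of 8 pan-leukocyte markers, 0.75 with dendritic and Langerhans cell markers, 0.70 with macrophage markers and 0.73 with T cell markers. Cd74 had 0.76, 0.80, 0.75 and 0.72. H2-K1 had 0.36, 0.37, 0.44 and 0.48, and H2-Eb1 0.14, 0.25, 0.19 and 0.11. With the mean of the interferon-gamma response genes, r was 0.72 for H2-Aa, 0.68 for B2m, 0.41 for H2-K1 and 0.31 for Tap1. With epidermal keratinocyte markers r was 0.35 for H2-K1 (rho 0.15), 0.52 for Tap1 (rho 0.33) and -0.045 for H2-Aa (rho -0.34), and within mice it was -0.25, -0.11 and -0.35. With striated muscle markers r over mice was 0.46 for H2-Aa (rho 0.47) and 0.16 for H2-K1 (rho 0.18). Within mice H2-K1, B2m and H2-Aa all followed the leukocyte markers, with r of 0.76, 0.84 and 0.84 over 31 differences. B cell markers were sparse, with 2 of the 7 that have a probeset above the filter, and Cd79a, Cd79b and Ms4a1 were below it. The part of leukocyte content in the relation of class I to class II was not tested.

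Between the classes of mice no member probeset was called. By limma over 12 susceptible and 6 resistant mice, 0 of the 23 member probesets passed an adjusted p of 0.05, beside 0.0510% of all 21561 tested probesets. Of the members 0 had an unadjusted p under 0.05 by limma, beside 2054 of the 21561. The adjusted p-values lay between 0.531 and 0.977, and the exact permutation p-values of these probesets, two-sided over 18564 splits of the mice, were 0.064 or higher. In all 23 the susceptible mean was the higher one, with a median difference of 0.32 and a range of 0.056 to 0.59, whereas over all tested probesets the median difference was 0.0076 and 52.0% were higher. The probesets are not independent, since most of them ran together over mice.

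H2-Ab1 1425477_x_at had the largest difference. In the susceptible mice it ran from 9.55 to 11.05 with a median of 10.58, and in the resistant mice from 8.34 to 10.99 with a median of 10.33. The groups overlapped, with 1 susceptible mouse above every resistant one and 2 resistant mice below every susceptible one. The difference was 0.59 ± 0.34 (SE, limma adjusted p = 0.611).

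H2-K1 1451931_x_at was between 12.25 and 13.00 in susceptible mice, with a median of 12.57, and between 11.56 and 12.90 in resistant mice, with a median of 12.35. Susceptible minus resistant was 0.28 ± 0.17 (SE, limma adjusted p = 0.644). H2-Aa 1452431_s_at was between 10.58 and 12.43 in susceptible mice (median 11.80), between 10.25 and 12.52 in intermediate mice (median 11.39) and between 9.60 and 12.16 in resistant mice (median 11.47). Susceptible minus resistant was 0.50 ± 0.32 (SE, limma adjusted p = 0.654). The resistant mice were more widely spread than the susceptible ones, with SDs of 0.97 and 0.49 for H2-Aa and 0.56 and 0.22 for H2-K1.

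Mice 32 and 37 were the lowest resistant mice in H2-K1. Their H2-K1 1451931_x_at was 11.76 and 11.56, and the other 4 resistant mice were at 12.17 to 12.90. Their B2m 1449289_a_at was 11.82 and 12.02, and their H2-Ab1 1450648_s_at was 8.90 and 9.59. Without mouse 32 the median difference over the 23 probesets was 0.17, and without mouse 37 it was 0.25. H2-Eb1 differed by 0.099 ± 0.47 (SE, limma adjusted p = 0.976), with values from 6.65 to 9.28 in susceptible and from 6.65 to 9.33 in resistant mice.

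Start cohorts, the groups of mice that share a start day in the labels, were unevenly shared between the classes. With cohort as a covariate 17 of the 23 probesets were higher in susceptible mice and the median difference was 0.13, with 0 called. Within the 3 cohorts that held both classes, 17 of 23 were higher in cohort 2 (2 against 2 mice, median difference 0.28), 12 of 23 in cohort 3 (3 against 1, 0.081) and 10 of 23 in cohort 7 (1 against 1, -0.063). Of the 6 mice of doubtful sex label, 1 was susceptible, 1 was resistant, and the rest were intermediate and not part of this comparison. Without them 21 of 23 were higher, the median difference was 0.42, and 10 had an unadjusted p under 0.05 by limma, with 0 called. In that fit 2460 of all 21561 tested probesets had an unadjusted p under 0.05. Without 1 resistant mouse, the number with an unadjusted p under 0.05 by limma was 10 (mouse 35), 6 (mouse 10), 4 (mouse 34), 3 (mouse 7) or 0 (mice 32 and 37), again with 0 called. Over all 21561 tested probesets that number was 2358 (mouse 35), 2203 (mouse 10), 1899 (mouse 34), 1802 (mouse 7), 1780 (mouse 32) and 2011 (mouse 37). H2-D1 1451934_at was below the filter on all arrays and so not among the 21561 tested probesets. It had the smallest exact permutation p of the 34 member probesets, 0.0103 for 12 against 6 mice. That p was not adjusted for the choice among them. In the fit without the filter, which included this probeset, 0 of 31 member probesets were called by limma.

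**Figure D5:**
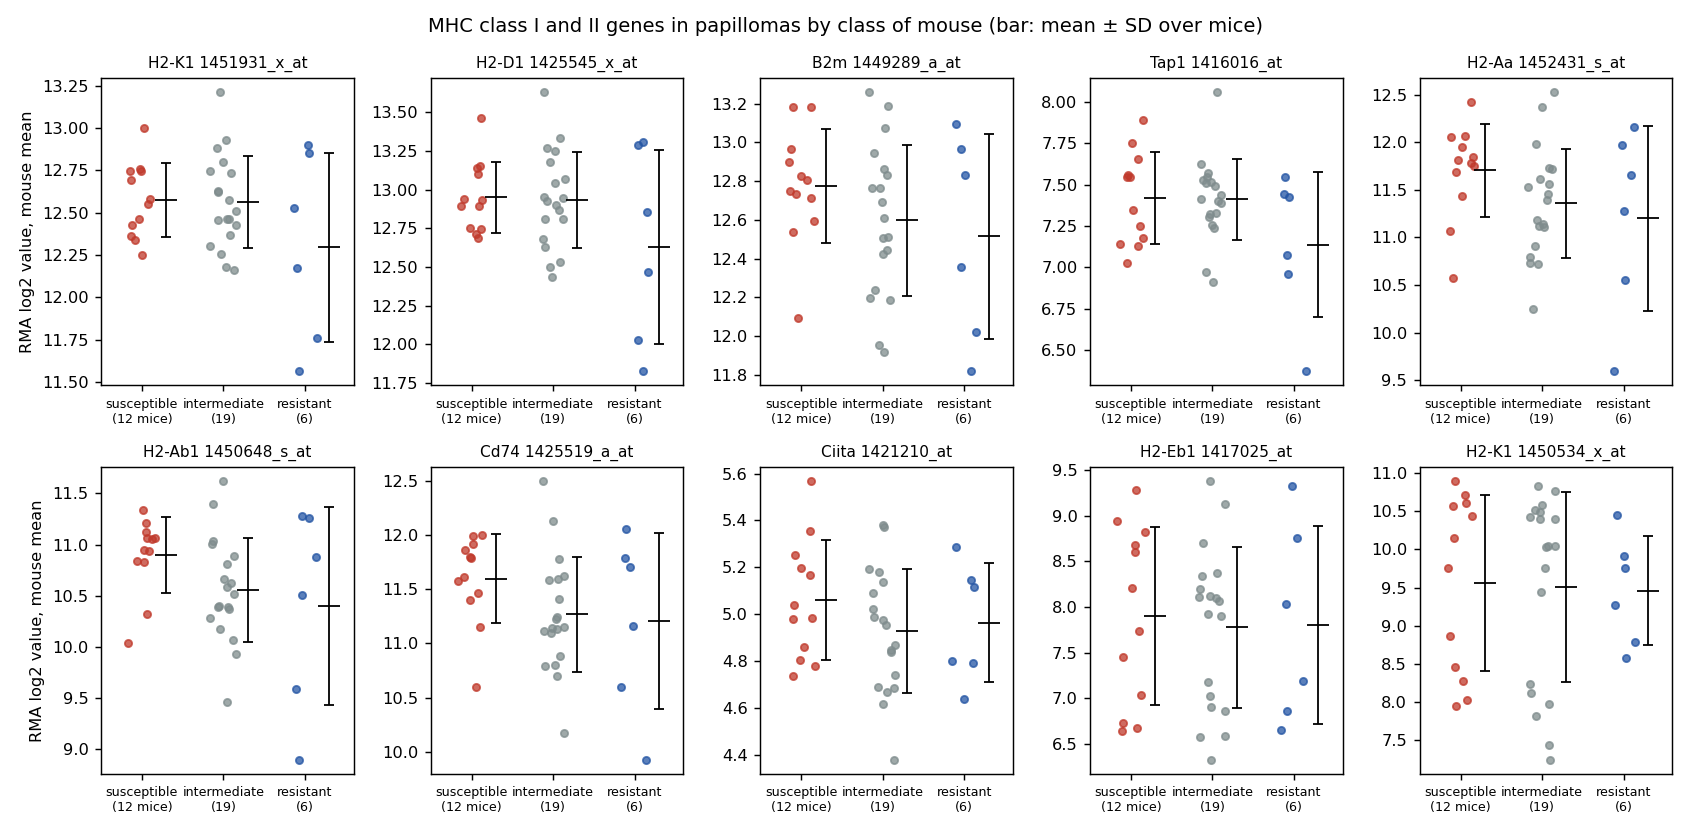
Log2 mouse means of 9 member genes (brightest probeset) and of H2-K1 1450534_x_at in 12 susceptible, 19 intermediate and 6 resistant mice; points are mice, and bars give the mean and SD over mice. The classes overlap in every panel, and the lowest H2-K1 1451931_x_at, H2-D1, B2m, Tap1, H2-Aa, H2-Ab1 and Cd74 values are in resistant mice.

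The wider lists of antigen presentation genes gave 0 calls between the classes by limma. Of the class I heavy chains, 7 genes were tested, 6 of them higher in susceptible mice, with a median difference of 0.15. Cd1d1, a lipid-presenting class I-like molecule, differed most (0.80 ± 0.24 SE, limma adjusted p = 0.232). Of the class I peptide supply and assembly genes 11 of 14 were higher, with a median of 0.15, and Nlrc5, the coactivator of class I genes, differed most (0.72 ± 0.22 SE, limma adjusted p = 0.238). Of the class II chains 7 of 8 were higher, with a median of 0.24, led by H2-DMa (0.68 ± 0.28 SE, limma adjusted p = 0.428). Of the class II supply and control genes 12 of 13 were higher, with a median of 0.13, led by Cd74 at 0.39. Rfx5, Rfxank, Rfxap and the Nfy subunits, which bind the class II promoters, differed by -0.061 to 0.17. Of the interferon-gamma response genes 14 of 17 were higher, with a median of 0.16, led by the chemokine Cxcl9 at 0.56.

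Cell type markers gave 0 calls as well. Dendritic and Langerhans cell markers were higher in susceptible mice in 6 of 11 and lower in 5, with a median difference of 0.075. Cd207, the langerin of Langerhans cells, differed by 0.99 ± 0.32 (SE, limma adjusted p = 0.265), and Fscn1, an actin-bundling protein of mature dendritic cells, by -0.41 (limma adjusted p = 0.428). Macrophage markers were higher in 10 of 11 (median difference 0.18), T cell markers in 5 of 7 (0.10) and pan-leukocyte markers in 5 of 8 (0.059). B cell markers were lower in 2 of 2 (-0.49). Epidermal keratinocyte markers were higher in 5 of 9 (0.29), with the differentiation keratins Krt1 at 1.74 and Krt10 at 1.49, and striated muscle markers in 7 of 8 (0.25). Summed levels overlapped between the classes: the list mean of leukocyte markers had a median of 9.06 in susceptible and 8.81 in resistant mice, with highest values of 10.0 and 9.35, and that of dendritic and Langerhans cell markers ran from 6.42 to 7.56 and from 6.39 to 7.16. The part of cell content in the class differences of the members was not tested.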

How the data were processed

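The values were RMA log2 values per probeset that the authors deposited for 68 Affymetrix whole-genome mouse arrays. RMA corrects background, normalizes arrays by quantiles and summarizes probes. Its version was not given in the sources used here, and quantile normalization hides a shift that all genes share. No value was missing, and 0 columns of values were left unused. No depth exists for arrays, and the number of mice limits the precision. Symbols came from the array annotation, of which 34945 probesets carried 1 symbol, 932 several and 9160 none, with 64 controls. A probeset was tested if it named 1 gene and exceeded the array median on 11 or more of 68 arrays (21561 probesets, 12596 genes).

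The replicate was the mouse, and log2 values of its papillomas were averaged. Susceptible and resistant mice were compared by limma 3.58.1 (R 4.3.3), calling an adjusted p (Benjamini-Hochberg) under 0.05, and for single probesets by exact permutation. The ICC took an F test (30 and 31 degrees of freedom). Relations used 1 probeset per gene, that of highest mean, and permutation in numpy 2.4.6 and scipy 1.17.1 (Python 3.11.15, pandas 2.3.3, matplotlib 3.10.9). The methods were tested on simulated data. Chromosomes came from RefSeq for GRCm38.p6.

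Genes named are the 9 members, H2-Ea, the 10 genes of highest r with H2-K1 and with H2-Aa, and up to 4 genes of largest class difference from each of 12 lists: 5 of antigen presentation and interferon-gamma response and 7 of cell type markers (dendritic and Langerhans, macrophage, B cell, T cell, leukocyte, keratinocyte, muscle). Ubr2, Med20, Rfx5, Rfxank, Rfxap, the Nfy genes and H2-D1 1451934_at were named after their values were seen. The members and lists were chosen with earlier results of these data known. Alternatives covered single arrays, a random block for mouse, first papillomas, the filter, the prior, all 3 classes, covariates, centring, leaving out each mouse, mice of doubtful sex label, the probeset of a gene, Spearman's rho, the Actb ratio and start cohorts. Chromosome counts, bands of mice, papilloma differences between probesets and class differences within cohorts were added after the data had been seen.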

Additional observations from a re-analysis of the deposited data

Results flagged for a closer look

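Dixon's test of 1 value apart was applied to the 6 resistant mice for 25 probesets, the 23 tested members and 2 of H2-Ea. Only H2-Aa 1438858_x_at held such a value: mouse 32 was at 8.79 and the other 5 resistant mice at 9.70 to 10.22. The gap was 0.638 of the whole range. Chance gives such a value in about 1 in 20 groups.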

How the results depend on the processing

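No paired analysis was possible because the classes share no mice. The count of member probesets called between classes was 0 under all alternatives run, including each of 18 mice left out. The count called by ICC was 16 to 21 of 23 without 1 mouse, beside 65.2% to 74.8% of all tested probesets. It was 21 of 31 without the filter, beside 43.2% of all, and 18 of 22 with the filter set at 34 arrays, beside 72.1%. Under the other alternatives it was 18 of 23, beside 58.2% to 68.7% of all. Between 23 and 28 relations of 36 were called, against 27, and 20 to 27 of them were among the same 27.

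The relation of H2-K1 to H2-Aa kept its direction except with the probeset of largest variance, where r was -0.12. Within start cohort 6 its r was 0.64 and its exact permutation p 0.0587, over 9 mice. Other relations also turned with that probeset: H2-K1 to H2-D1 (-0.48), to H2-Ab1 (-0.15), to Tap1 (-0.12), to Ciita (-0.077) and to H2-Eb1 (0.77), and H2-Ab1 to H2-Eb1 (-0.010). H2-K1 and H2-D1 to H2-Eb1 turned to 0.12 and 0.054 with sex and start cohort removed. H2-Aa to H2-Eb1 turned to -0.015 by Spearman's rho, -0.10 without the 2 mice farthest from the median and -0.076 with the Actb ratio removed, and H2-Eb1 to Tap1 to 0.070 in first papillomas. None of these H2-Eb1 relations was called with the brightest probesets, and H2-K1 to H2-Eb1 was called with those of largest variance (adjusted permutation p = 4e-05). H2-Eb1 to Cd74 (0.31) was called in 3 settings, with r of 0.43 in first papillomas, 0.42 with sex and start cohort removed and 0.39 without mice of doubtful sex label, and H2-D1 to H2-Eb1 (-0.25) in 2, with r of -0.40 by the probeset of largest variance and -0.36 without the 2 farthest mice. Calls were lost for H2-K1 to Cd74 (0.17) and to B2m (0.14) with the probeset of largest variance, for H2-D1 to Cd74 and Cd74 to Tap1 (both 0.34, adjusted permutation p = 0.0566) without the 2 farthest mice, and for H2-K1 to Ciita (0.31) in first papillomas.

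No class difference was called in any setting. That of H2-Eb1 turned to -0.029 over single arrays, -0.53 with sex and start cohort, -0.28 with start cohort and -0.12 without mice of doubtful sex label, and ran from -0.13 to 0.40 without 1 mouse. That of H2-K1 1450534_x_at turned to -0.55, -0.26 and -0.089 in the last 3 of these settings, and ran from -0.077 to 0.30 without 1 mouse. With sex and start cohort, and with start cohort, Ciita was at -0.017 and -0.033 and B2m 1452428_a_at at -0.091 and -0.11. The cause was not tested. Ciita (ICC 0.32) lost its call in 4 settings, with an ICC of 0.32 without the filter, 0.36 without mice of doubtful sex label, 0.32 with the Actb ratio removed and 0.29 with cohort means removed. The number of mice limits all of these values.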
